A study of Mus musculus with 6 samples.

Results

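The transcripts described here are those of glycolysis and of the supply of pyruvate and lactate in the mouse oviduct. They were chosen from a list of 36 genes, as all array probe sets whose platform annotation names only 1 of them, and each gene was represented by its brightest probe set. Of the 36 genes, 33 were measured, through 64 probe sets of 45037, and stand among 18193 genes in all. Gpi1, Eno1 and Pfkfb1 had no matching probe set in the annotation used and were not analysed here. Oviducts of the MF1 stock of mice were compared between 3 wild-type samples (Wt1 +/+) and 3 samples with 1 disrupted copy of Wt1 (Wt1 ko/+), each on an array of its own. The product of Wt1 is a transcription factor with zinc fingers. All females, of both genotypes, had been mated with males of wild-type genotype and their oviducts were taken at embryonic day 2.5, and their ages are not given in the sources used here. The labels describe neither the construction of the disrupted allele nor whether a sample came from 1 animal or a pool, so the replicate spread behind the p-values may be partly technical.

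Glycolysis splits glucose into pyruvate in a preparatory phase that spends ATP and a payoff phase that returns it. Pyruvate is then reduced to lactate by lactate dehydrogenase, exported or taken up by monocarboxylate transporters, or oxidised in the mitochondrion by the pyruvate dehydrogenase complex, which the pyruvate dehydrogenase kinases switch off. Oviductal fluid carries pyruvate, lactate and glucose, and the cleaving mouse embryo uses pyruvate and lactate before it can use glucose well.

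Levels are log2 intensities after quantile normalization, and differences are heterozygous minus wild type on that log2 scale. Probe sets bind their targets with unequal strength, so levels were compared between arrays for 1 gene at a time and not between genes. The oviduct label was checked with marker genes: of 8 secretory epithelium markers 7, of 9 ciliated epithelium markers 7 and of 9 smooth muscle markers 9 lay above the median of all probe sets (7.31) in every array. Of 10 skeletal muscle markers, 0 lay above it in every array, and of 9 measured oocyte, cumulus or embryo markers, 1 did. RNA quality differed between arrays, with a ratio of 3' to 5' signal of the Actb control of 5.90 in wild-type replicate 3 and 1.67 to 2.49 in the other arrays. Wild-type replicate 1 and heterozygous replicates 2 and 3 formed the lower 3 of these ratios, and wild-type replicates 2 and 3 and heterozygous replicate 1 the higher 3. A difference within such a class sets 1 array of one genotype against 2 of the other. For a gene without overlap, its direction there is fixed in advance. Tissue arrays measure a mixture of cells, so fewer cells of a type and less RNA per cell cannot be told apart.

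Transcripts of most of the pathway gave signal above the middle of the array in both genotypes. Both group means lay above the median of all probe sets for 31 of the 33 members (93.9%), beside 63.0% of all genes, each taken at its brightest probe set. Both lay below it for Slc16a3 alone, whereas the Slc16a7 mean lay below it in wild-type and above it in heterozygous oviducts. Within a genotype, the SD of a member ranged from 0.02 to 0.54 with a median of 0.17, against a median of 0.22 over all genes. The lowest of the 6 values belonged to heterozygous replicate 3 in 13 of the 33 members, and the highest to wild-type replicate 3 in 9.

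**Figure D1:**
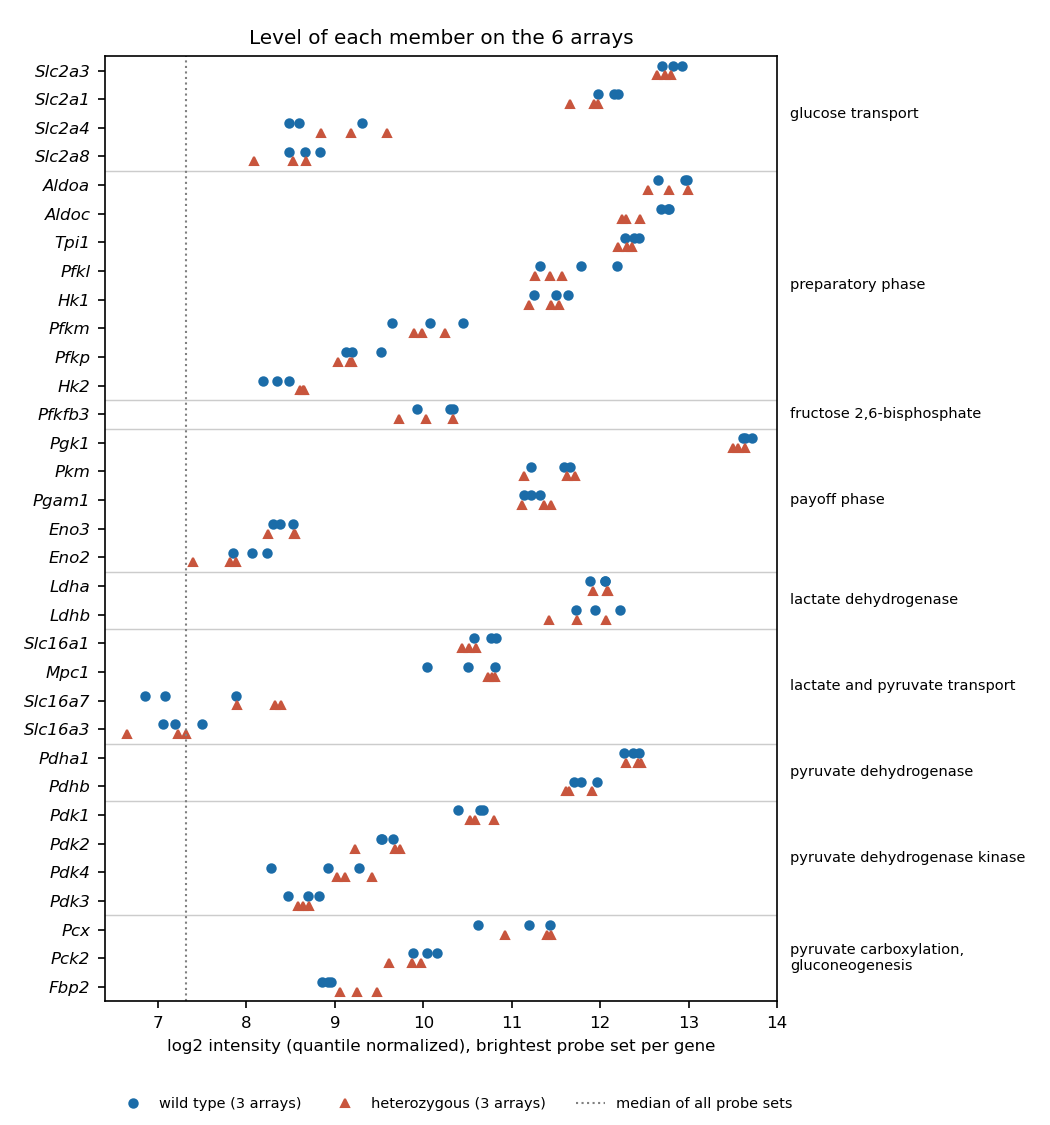
Log2 intensity of each of the 33 members on the 6 arrays, grouped by role, with wild-type arrays as circles and heterozygous arrays as triangles; the dotted line is the median of all probe sets (7.31). The 2 genotypes lie close together for most members, and Slc16a7 and Slc16a3 lie nearest to the line.

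No member passed the threshold between genotypes, and the differences were small for most of them. Aldolase C (Aldoc) and the glucose transporter Slc2a1 were lower in each of the 3 heterozygous arrays than in any wild-type array, whereas hexokinase 2 (Hk2), the muscle fructose bisphosphatase Fbp2 and the monocarboxylate transporter Slc16a7 were higher in every heterozygous array. Over all genes 3 passed an adjusted p of 0.05 with limma (0.0165%), and 0 of the 33 members did, their adjusted p ranging from 0.610 to 0.995. At an unadjusted p under 0.05 stood 2 members, or 6.06%, near the 6.44% of all genes. They were Slc16a7, which was higher, as were 2.67% of all genes at that level, and Aldoc, which was lower, as were 3.77%. The genotypes did not overlap in 5 members, 15.2%, beside 11.8% of all genes. Higher without overlap stood 3 of the 33 members, beside 909 of the 18193 genes. Lower without overlap stood 2, or 6.06% of the members, beside 6.77% of all genes. In the direction of the difference alone, 20 members (60.6%) were lower, beside 55.0% of all genes, and 13 were higher, beside 45.0%. The median difference was -0.07, beside -0.03 over all genes.

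The counts moved with single arrays. Members without overlap numbered 12 without wild-type replicate 1 (36.4%, beside 32.0% of all genes), 9 without heterozygous replicate 1 (27.3%, beside 21.3%) and 8 without wild-type replicate 3 (24.2%, beside 19.6%) or without heterozygous replicate 3 (24.2%, beside 22.6%). Those at an unadjusted p under 0.05 numbered 4 without wild-type replicate 1 (12.1%, beside 10.5% of all genes) and 1 without heterozygous replicate 1 (3.03%, beside 5.58%). Without heterozygous replicate 3 the median difference was 0.0040.

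The intervals bound how large a difference could have gone unseen at the brightest probe set of each gene. The 95% interval of the difference, from limma, lay within a doubling or halving (1 on the log2 scale) for 30 of the 33 members, and within 0.58 for 17. The exceptions to the wider bound were Slc2a4 (-0.31 to 1.13), Slc16a7 (0.19 to 1.68) and Pdk4 (-0.31 to 1.04).

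**Figure D2:**
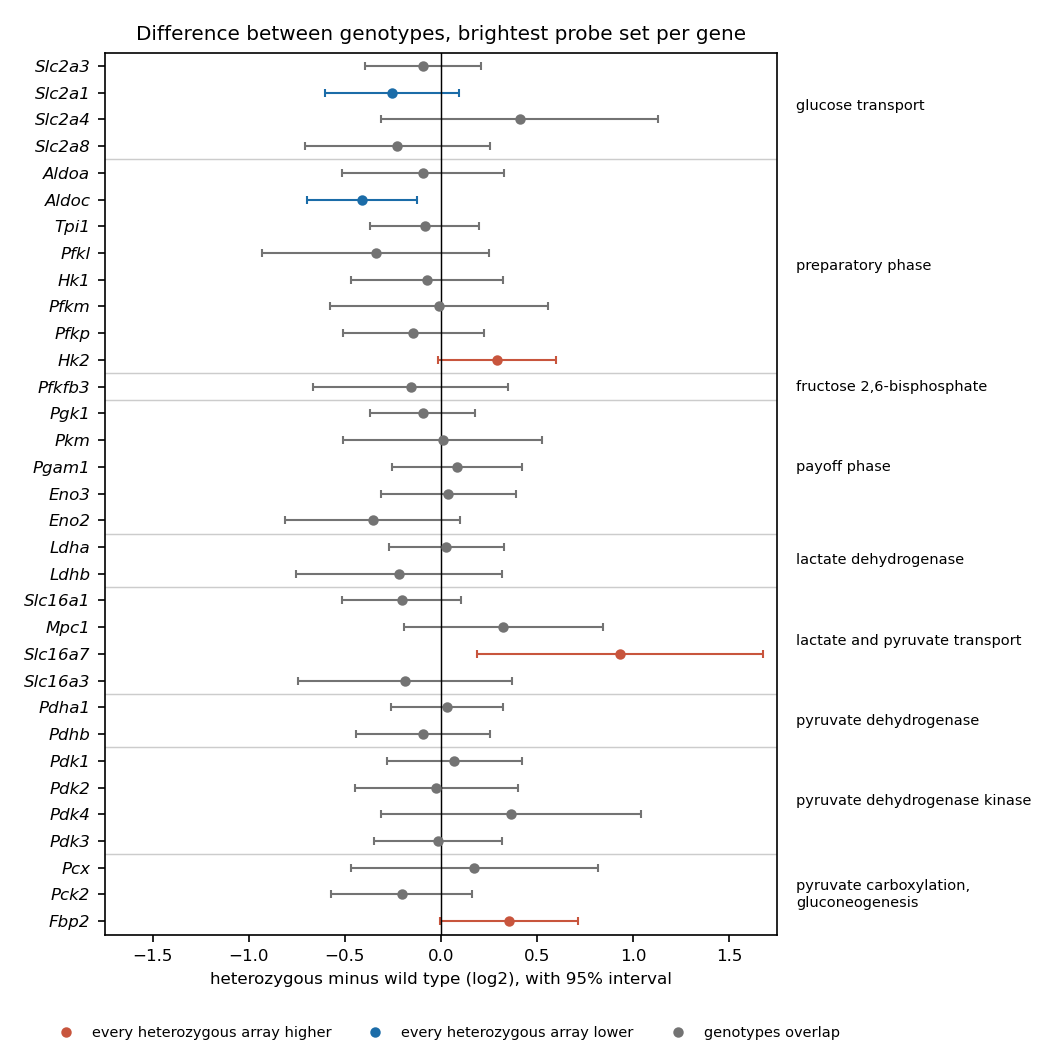
Difference between genotypes (heterozygous minus wild type, log2) for the 33 members, grouped by role, with the 95% interval from limma. Aldoc and Slc2a1 are marked as lower and Hk2, Slc16a7 and Fbp2 as higher in every heterozygous array; the intervals of Aldoc and Slc16a7 leave out 0, and no member passed the threshold after adjustment.

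The stretches upstream of these genes are shown because Wt1 binds DNA and because many glycolytic genes carry hypoxia response elements. Promoter sequences from RefSeq (GRCm38.p6) were matched by symbol for 30 of the 33 measured members; the 3 others, Slc2a3, Slc2a4 and Slc16a7, are named only. For each gene the first listed start site was used, and the 250 bases before it were searched on both strands for GCGTGGGNG, a motif of the WT1 and EGR zinc fingers, and for ACGTG and GCGTG, the core letters of hypoxia response elements. GCGTG is also the beginning of GCGTGGGNG, and ACGTG read on both strands of CACGTG counts 2 times. The 4 available promoters of members without overlap between the genotypes are printed, with that of Pfkp, the member that holds GCGTGGGNG, and that of Ldha, in which ACGTG was found most often. Sequences run 5′ to 3′ along the gene and end 1 base before the start site, and capitals mark the letters searched for. Those of Aldoc and Slc2a1 lie at chr11:78322823-78323072 on the plus strand and chr4:119108495-119108744 on the plus strand. Those of Hk2 and Fbp2 lie at chr6:82774455-82774704 on the minus strand and chr13:62858401-62858650 on the minus strand. Those of Pfkp and Ldha lie at chr13:6648772-6649021 on the minus strand and chr7:46845554-46845803 on the plus strand.
Aldoc: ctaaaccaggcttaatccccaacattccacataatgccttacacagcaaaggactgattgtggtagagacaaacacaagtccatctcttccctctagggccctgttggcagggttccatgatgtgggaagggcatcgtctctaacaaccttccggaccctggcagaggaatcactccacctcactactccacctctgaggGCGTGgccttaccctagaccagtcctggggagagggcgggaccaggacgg
Slc2a1: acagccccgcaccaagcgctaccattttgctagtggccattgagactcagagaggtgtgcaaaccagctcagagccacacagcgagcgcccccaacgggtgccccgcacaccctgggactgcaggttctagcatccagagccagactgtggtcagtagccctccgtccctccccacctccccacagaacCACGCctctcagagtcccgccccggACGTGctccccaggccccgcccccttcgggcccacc
Hk2: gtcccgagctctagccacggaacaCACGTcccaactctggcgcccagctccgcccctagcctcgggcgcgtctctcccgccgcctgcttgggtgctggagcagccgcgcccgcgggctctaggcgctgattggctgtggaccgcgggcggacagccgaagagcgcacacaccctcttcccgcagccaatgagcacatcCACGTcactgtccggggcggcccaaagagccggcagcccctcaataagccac
Fbp2: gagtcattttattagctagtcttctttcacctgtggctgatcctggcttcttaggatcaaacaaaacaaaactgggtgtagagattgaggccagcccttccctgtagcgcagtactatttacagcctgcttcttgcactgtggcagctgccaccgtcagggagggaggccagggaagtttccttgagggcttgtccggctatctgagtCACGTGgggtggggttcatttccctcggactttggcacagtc
Pfkp: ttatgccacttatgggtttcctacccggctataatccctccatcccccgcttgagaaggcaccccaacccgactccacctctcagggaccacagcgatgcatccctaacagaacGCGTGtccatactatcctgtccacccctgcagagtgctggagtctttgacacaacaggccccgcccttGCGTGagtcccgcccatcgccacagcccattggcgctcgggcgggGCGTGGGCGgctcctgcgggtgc
Ldha: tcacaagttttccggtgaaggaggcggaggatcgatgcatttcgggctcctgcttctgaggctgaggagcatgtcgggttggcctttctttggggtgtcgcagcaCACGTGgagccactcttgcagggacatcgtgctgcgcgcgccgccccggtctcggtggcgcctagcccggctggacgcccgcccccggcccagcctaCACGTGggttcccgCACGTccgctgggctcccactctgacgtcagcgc

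The WT1 and EGR letters were found upstream of 1 of 30 members (3.33%), beside 1.65% of all 32851 promoters and 2.42% of those of 14452 tested genes. ACGTG or GCGTG was found upstream of 25 of the 30 (83.3%), beside 38.6% of all promoters and 49.7% of those of tested genes. ACGTG was found in 14 members (46.7%, beside 19.8% of tested genes) and GCGTG in 16 (53.3%, beside 38.8%). Both hold the letters CG, and promoters were not matched for base composition, so these shares do not single out hypoxia response elements. Among the printed stretches Slc2a1 held both letters once each, Aldoc held GCGTG once, Hk2 held ACGTG at 2 places and Fbp2 held 1 CACGTG. A match is a run of letters, not a measured site, and binding was not measured here.

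Of the glucose transporters, Slc2a1 was lower and the others overlapped between the genotypes. Slc2a1 encodes GLUT1, the transporter of basal glucose uptake in many cells. Its levels were 12.15, 11.98 and 12.20 in wild-type and 11.93, 11.66 and 11.97 in heterozygous replicates 1, 2 and 3. All 3 heterozygous values lay below the lowest wild-type value, by a margin of less than 0.01 between the nearest arrays. The difference was -0.26 with a standard error of 0.14 (limma p = 0.122, adjusted p = 0.850; exact permutation p = 0.1, the smallest that 3 arrays against 3 can give). Its other 2 probe sets were lower by a similar amount, -0.26 with overlap and -0.21 without. Without heterozygous replicate 2 the Slc2a1 difference was -0.16, and over the arrays left out it ran to -0.32. Within the classes of RNA quality the Slc2a1 difference was -0.34 within the 3 arrays of lower ratio and -0.16 within the 3 of higher ratio.

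Slc2a3 encodes GLUT3, a transporter of high affinity for glucose, and stood at 12.70, 12.93 and 12.82 in wild-type and 12.73, 12.80 and 12.64 in heterozygous replicates 1, 2 and 3. The genotypes overlapped, with a difference of -0.09 (adjusted p = 0.938 with limma). Its 2 brighter probe sets gave -0.09 and -0.03, and its 2 dimmer ones 0.83 and 0.50, all with overlap. Slc2a8, which encodes an intracellular hexose transporter, differed by -0.23 (adjusted p = 0.899).

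Slc2a4 encodes GLUT4, the transporter that insulin moves to the surface of muscle and fat cells. At its brighter probe set the levels were 8.48, 8.60 and 9.30 in wild-type and 9.18, 9.59 and 8.84 in heterozygous replicates 1, 2 and 3. Wild-type replicate 3 lay among the heterozygous values, and the difference of 0.41 did not pass (adjusted p = 0.891 with limma). Leaving out heterozygous replicate 2 gave 0.22, and leaving out replicate 1 or replicate 3 of the wild type gave 0.25 or 0.66. At its dimmer probe set the levels were 7.95, 7.45 and 6.98 in wild-type and 8.29, 8.89 and 8.15 in heterozygous replicates 1, 2 and 3, so every heterozygous value was higher, by a difference of 0.98 (limma p = 0.0237, adjusted p = 0.904 over all probe sets; exact permutation p = 0.1). The order of the wild-type arrays was opposite at the 2 probe sets: wild-type replicate 3, the array of highest 3' to 5' ratio, was the highest of its group at one and the lowest at the other.

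**Figure D3:**
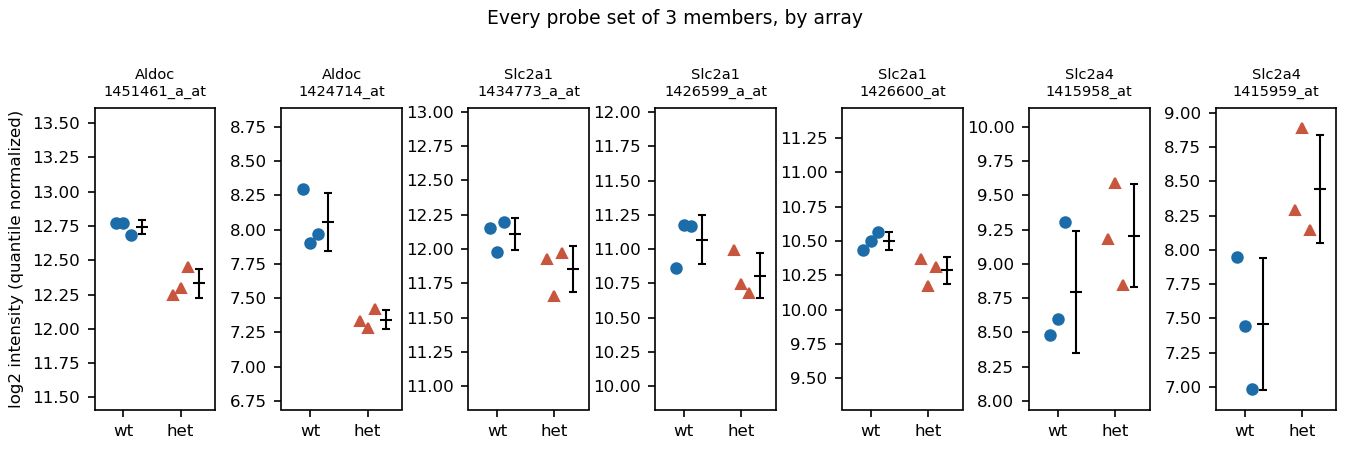
Log2 intensity at every probe set of Aldoc, Slc2a1 and Slc2a4, with wild-type arrays as circles, heterozygous arrays as triangles and the mean with its SD (n = 3) beside each group; every vertical axis spans the same 2.2 log2 units. Both probe sets of Aldoc separate the genotypes, as do 2 of 3 for Slc2a1 and 1 of 2 for Slc2a4.

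In the preparatory phase 7 of the 8 measured members were lower and 1 higher, with a median difference of -0.09 and none past the threshold. Aldoc encodes an aldolase best known from brain, which splits fructose bisphosphate into trioses. Its levels were 12.78, 12.77 and 12.69 in wild-type and 12.25, 12.30 and 12.45 in heterozygous replicates 1, 2 and 3. The wild-type values lay close together and above all heterozygous ones, with means of 12.74 ± 0.05 (SD, n = 3) for the wild type and 12.33 ± 0.11 (SD, n = 3) for the heterozygotes, 1.33-fold lower. The difference was -0.41 with a standard error of 0.12 (limma p = 0.0126, adjusted p = 0.610; exact permutation p = 0.1). At the dimmer Aldoc probe set the levels were 8.29, 7.90 and 7.97 in wild-type and 7.33, 7.28 and 7.42 in heterozygous replicates 1, 2 and 3. That difference was -0.71, again without overlap (limma p = 0.00511, adjusted p = 0.704 over all probe sets; exact permutation p = 0.1). The Aldoc difference was -0.40 within the 3 arrays of lower ratio and -0.48 within the 3 of higher ratio. It was -0.37 to -0.48 when any 1 array was left out.

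Aldoa, the aldolase of muscle and of most tissues, overlapped between the genotypes at all 5 of its probe sets. At its brightest it stood at 12.66, 12.99 and 12.96 in wild-type and 12.99, 12.78 and 12.54 in heterozygous replicates 1, 2 and 3. The difference was -0.09 (interval -0.51 to 0.33), and over the 5 probe sets it ranged from -0.24 to -0.03.

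Hk2 encodes the hexokinase of insulin-sensitive tissue, which traps glucose as its phosphate. It stood at 8.19, 8.48 and 8.34 in wild-type and 8.61, 8.65 and 8.64 in heterozygous replicates 1, 2 and 3. The 3 heterozygous values lay between 8.61 and 8.65, above every wild-type value. The difference was 0.29 with a standard error of 0.13, 1.23-fold higher (limma p = 0.0579, adjusted p = 0.798; exact permutation p = 0.1). Hk1, the hexokinase found in most tissues, overlapped between the genotypes, with a difference of -0.07 at its brighter probe set and 0.58 at its dimmer one. The 3 phosphofructokinases, which commit glucose to glycolysis, overlapped as well, with differences of -0.34 for the liver form Pfkl, -0.01 for the muscle form Pfkm and -0.15 for the platelet form Pfkp. Wild-type replicate 3 held the highest value of all 3 genes. The Pfkl difference was 0.03 within the 3 arrays of lower ratio and -0.42 within the 3 of higher ratio. Tpi1, which interconverts the trioses, differed by -0.08 at its brightest probe set and was lower at all 3 of them.

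Pfkfb3, which makes the activator of phosphofructokinase, stood at 9.93, 10.30 and 10.33 in wild-type and 10.03, 10.34 and 9.73 in heterozygous replicates 1, 2 and 3. Both genotypes spanned a similar range, with a difference of -0.16 (adjusted p = 0.938 with limma).

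In the payoff phase all 5 measured members overlapped between the genotypes, 3 higher and 2 lower, with a median difference of 0.01. Pgk1, which makes the first ATP of this phase, stood at 13.62, 13.64 and 13.72 in wild-type and 13.64, 13.50 and 13.56 in heterozygous replicates 1, 2 and 3. Its difference of -0.10 had an interval of -0.37 to 0.18, among the narrower ones of the members. Pkm, the pyruvate kinase, differed by 0.01, Pgam1, a phosphoglycerate mutase, by 0.08 and Eno3, the muscle enolase, by 0.04. Eno2, the neuronal enolase, differed by -0.36 (adjusted p = 0.839 with limma). Its heterozygous replicate 1, at 7.88, lay above wild-type replicate 1, at 7.85.

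The lactate dehydrogenase genes did not separate the genotypes. Ldha, whose subunit favours the reduction of pyruvate to lactate, stood at 12.06, 12.05 and 11.89 in wild-type and 11.92, 12.09 and 12.08 in heterozygous replicates 1, 2 and 3. The values of both genotypes covered the same range, with a difference of 0.03 (interval -0.27 to 0.33). Ldhb, whose subunit favours the reverse reaction, differed by -0.22 (interval -0.76 to 0.32) and was lower at all 4 of its probe sets, by 0.12 to 0.31 in size and each with overlap. Its brightest probe set was highest in wild-type replicate 3 (12.22) and lowest in heterozygous replicate 3 (11.42).

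Among the transporters of lactate and pyruvate, Slc16a7 gave the largest difference of all 33 members. Slc16a7 encodes MCT2, a carrier of high affinity for pyruvate and lactate. It stood at 7.88, 7.08 and 6.85 in wild-type and 8.32, 8.40 and 7.90 in heterozygous replicates 1, 2 and 3. The nearest values of the genotypes, wild-type replicate 1 and heterozygous replicate 3, were 7.88 and 7.90. Means were 7.27 ± 0.54 (SD, n = 3) for the wild type and 8.20 ± 0.27 (SD, n = 3) for the heterozygotes, 1.91-fold higher. The difference was 0.93 with a standard error of 0.30 (limma p = 0.0223, adjusted p = 0.684; exact permutation p = 0.1). It was 0.26 within the 3 arrays of lower ratio and 1.35 within the 3 of higher ratio, and the gene has 1 probe set. The 2 wild-type arrays of higher ratio held its lowest values, and the part of RNA quality in the difference was not tested beyond these values and the covariate, with which it was 0.69.

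Slc16a1, which encodes the widely expressed carrier MCT1, stood at 10.76, 10.82 and 10.57 in wild-type and 10.44, 10.60 and 10.51 in heterozygous replicates 1, 2 and 3. The heterozygous values were lower apart from an overlap of heterozygous replicate 2 with wild-type replicate 3, and the difference was -0.20 (adjusted p = 0.868 with limma). Slc16a3, which encodes MCT4, the carrier of lactate export, overlapped between the genotypes, with a difference of -0.19. Mpc1, a subunit of the mitochondrial pyruvate carrier, differed by 0.32 (adjusted p = 0.880). Its wild-type values ran from 10.04 in replicate 3 to 10.81 in replicate 1, and the heterozygous ones from 10.73 to 10.82, so the Mpc1 difference was -0.03 within the 3 arrays of lower ratio and 0.51 within the 3 of higher ratio.

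At the entry of pyruvate into the citric acid cycle the genotypes overlapped throughout. Pdha1, the catalytic subunit of pyruvate dehydrogenase that its kinases phosphorylate, stood at 12.44, 12.37 and 12.27 in wild-type and 12.46, 12.43 and 12.29 in heterozygous replicates 1, 2 and 3. The Pdha1 difference was 0.03 (interval -0.26 to 0.32), and 0.47 with overlap at its dimmer probe set. That of its partner subunit Pdhb was -0.09. Of the kinases, Pdk1, which hypoxia induces in many cells, stood at 10.67, 10.39 and 10.64 in wild-type and 10.58, 10.53 and 10.80 in heterozygous replicates 1, 2 and 3. Its difference was 0.07, and those of Pdk2 and Pdk3 were -0.02 and -0.02. Pdk4, the kinase induced by fasting, differed by 0.37 with a wide interval, its wild-type values running from 8.28 in replicate 2 to 9.27 in replicate 1 (adjusted p = 0.891).

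Pcx, the enzyme that carboxylates pyruvate to oxaloacetate, stood at 10.62, 11.19 and 11.43 in wild-type and 11.45, 11.39 and 10.92 in heterozygous replicates 1, 2 and 3. Wild-type replicate 1 was lowest and the genotypes overlapped, with a difference of 0.17. The deposited files also hold 4 control probe sets for Pcx, left out of the fit. On the deposited scale these were higher by 0.19 near the 3' end and by 0.62 to 1.08 at the others. The genotypes overlapped at all 4. The 5' one stood at 7.94, 6.22 and 6.53 in wild-type and 6.99, 7.63 and 7.92 in heterozygous replicates 1, 2 and 3. Away from the 3' end, wild-type replicates 2 and 3, the wild-type arrays of higher 3' to 5' ratio, held the lowest values. Pck2, the mitochondrial enzyme that makes phosphoenolpyruvate, differed by -0.20 (adjusted p = 0.891). Fbp2, the muscle fructose bisphosphatase, stood at 8.92, 8.96 and 8.85 in wild-type and 9.48, 9.06 and 9.25 in heterozygous replicates 1, 2 and 3. Every heterozygous value was higher than every wild-type value, with means of 8.91 ± 0.06 (SD, n = 3) for the wild type and 9.26 ± 0.21 (SD, n = 3) for the heterozygotes. The Fbp2 difference was 0.35 with a standard error of 0.15 (limma p = 0.0514, adjusted p = 0.779; exact permutation p = 0.1).

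The members that were higher in heterozygous oviducts stood beside higher summed marker signal of smooth muscle, fat, stroma and endothelium. Over all genes, 45.0% were higher and 11.8% did not overlap between the genotypes. All 9 measured smooth muscle markers were higher, 0 past the threshold, by a median of 0.54, and 6 of them without overlap (66.7%). The summed intensity of the 9 was 40381 to 42631 in wild-type and 45335 to 59189 in heterozygous arrays. Of 6 measured adipocyte markers 5 were higher, with a summed intensity of 397 to 405 in wild-type and 559 to 898 in heterozygous arrays. Without overlap stood 2 of the 6, Fabp4 (1.48) and Adipoq (2.08). Cidec (1.26), Pck1 (0.11), Retn (0.04) and Lep (-0.03) overlapped between the genotypes. The means of Cidec, Pck1, Lep and Adipoq lay under 7.31, the all-probe-set median, in both genotypes. Stromal fibroblast markers were higher in 7 of 7, by a median of 0.14, and 1 of them without overlap (14.3%). Their sum was 38709 to 41292 in wild-type and 41543 to 48524 in heterozygous arrays. Endothelial markers were higher in 6 of 7, by a median of 0.38, and 1 of them without overlap (14.3%). Their sum was 2765 to 2979 in wild-type and 3230 to 3832 in heterozygous arrays. Skeletal muscle sums overlapped, at 534 to 674 in wild-type and 556 to 1044 in heterozygous arrays. The sums of smooth muscle markers were highest in heterozygous replicates 2 and 1, which also held the highest Slc16a7 values. Slc2a4 was highest in heterozygous replicate 2. Fbp2 did not follow that order, being lowest of the heterozygous arrays in replicate 2 (9.06), and Hk2 was nearly level across them. None of the markers of these cell types was listed at 0, and the part of these cells in the differences of Slc2a4, Hk2, Fbp2 and Slc16a7 was not tested.

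The lower members stood beside a lower sum of ciliated epithelium markers. Of its 9 markers 7 were lower (77.8%, beside 55.0% of all genes), 0 past the threshold, and the median over the 9 was -0.08. Without overlap stood Foxj1 and Tppp3 (22.2%, beside 11.8% of all genes), both lower. The sum was 19944 to 21475 in wild-type and 16762 to 19204 in heterozygous arrays. The 2 exceptions, Spag6 and Dnah5, were higher by 1.18 and 0.72 with overlap, and the largest decrease was -0.31, in Foxj1. Both genotype means of Spag6 lay under 7.31. Secretory epithelium markers overlapped in their sum, at 55461 to 60442 in wild-type and 57346 to 59956 in heterozygous arrays. Of 9 measured oocyte, cumulus or embryo markers 8 were lower (88.9%), with a median of -0.28 over the 9. Their sums overlapped, at 719 to 929 in wild-type and 797 to 866 in heterozygous arrays. For 7 of these 9 both genotype means lay under 7.31. Tnfaip6, the exception among them, was higher in every heterozygous array, by 0.96. Neuron markers, listed since Aldoc and Eno2 are known from neurons, were lower in 6 of 7, with a sum of 1068 to 1146 in wild-type and 1003 to 1078 in heterozygous arrays. The exception, Stmn2, was higher in every heterozygous array, by 0.77 (adjusted p = 0.681 with limma), and no other neuron marker was at an unadjusted p under 0.05. For 5 of the 7 neuron markers both genotype means lay under 7.31. Of 8 listed erythroid markers 4 were measured, and all 4 lay below that median in every array. The part of these cells in the Aldoc and Slc2a1 differences was not tested.

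**Figure D4:**
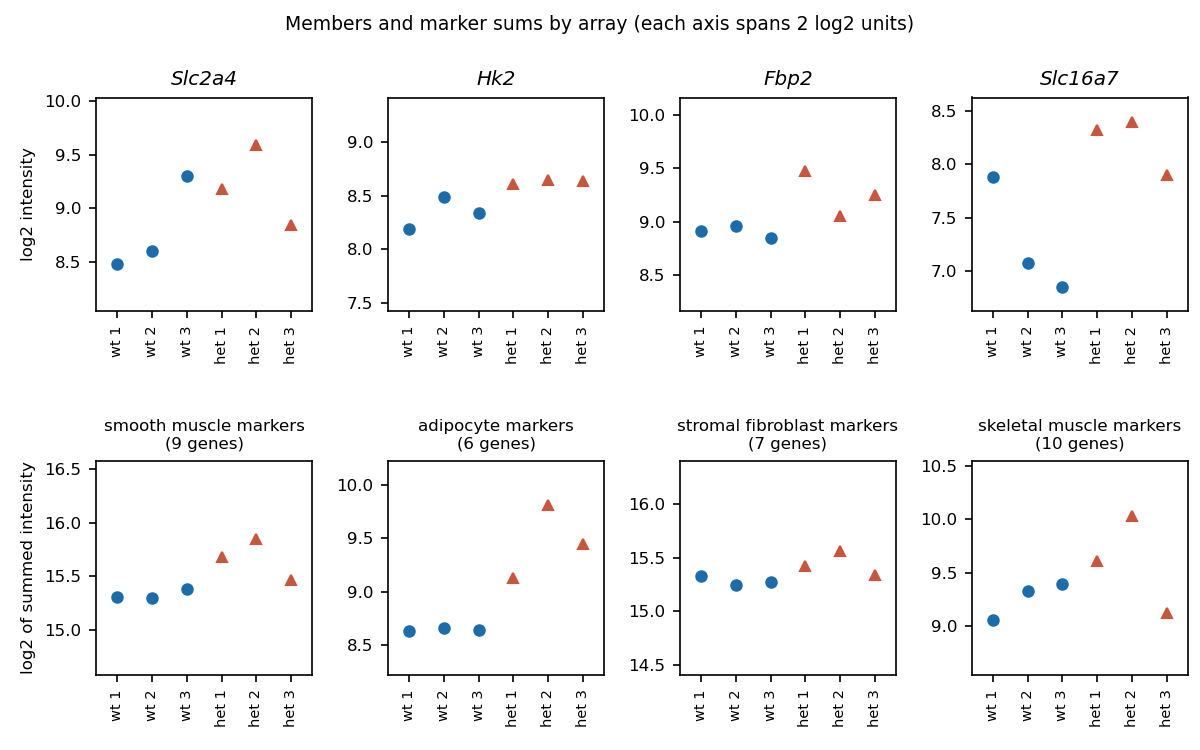
Top, log2 intensity of Slc2a4, Hk2, Fbp2 and Slc16a7 on each array; bottom, log2 of the summed intensity of the measured markers of 4 cell types on the same arrays, wild type as circles and heterozygous as triangles, each axis spanning 2 log2 units. The sums of smooth muscle, adipocyte and stromal fibroblast markers are higher in each heterozygous array, and those of skeletal muscle overlap.

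Around these members, 151 of 162 genes in 10 further lists of glucose and pyruvate metabolism and its control were measured, and 0 passed the threshold. Of the 151, 77 were higher and 74 lower with a median difference of 0.000736, 8 stood at an unadjusted p under 0.05 (5.30%, beside 6.44% of all genes) and 19 did not overlap between the genotypes (12.6%, beside 11.8%). In the citric acid cycle 12 of 19 genes were higher, and all differences lay between -0.17 and 0.17. The pentose phosphate pathway had 5 of 9 higher, between -0.12 and 0.23. In the hypoxia response list 12 of 20 were lower (60.0%, beside 55.0% of all genes), with a median of -0.03 and 0 at an unadjusted p under 0.05. Without overlap stood 4 genes (20.0%, beside 11.8% of all genes). They were P4ha1, P4ha2, Egln3 and Vhl, all lower, a direction without overlap seen in 6.77% of all genes. The limma p of these 4 ran from 0.0558 to 0.386. The other 8 of the 20 genes were higher, all with overlap, by up to 0.29 for Ankrd37. The further genes of the pyruvate dehydrogenase complex had 7 of 9 higher, and the further glycolytic genes 11 of 15 lower, each with 0 at an unadjusted p under 0.05. Regulators of glycolysis had 12 of 21 higher, with 0 at that level.

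Several relatives of the members had the smallest p in these lists, most of them dim. Slc16a12, another carrier of the monocarboxylate family, stood at 7.22, 7.33 and 7.47 in wild-type and 7.80, 8.05 and 8.44 in heterozygous replicates 1, 2 and 3. All heterozygous values were higher, by a difference of 0.76 (adjusted p = 0.557 with limma). Slc5a12, a sodium-coupled carrier of lactate, was higher by 1.83 (adjusted p = 0.427), but its highest value, in heterozygous replicate 2, was 4.08, far under the median of all probe sets. With log2 of the intensity plus 16 the Slc5a12 difference was 0.52, and with probe sets averaged per gene 0.89. Slc5a11, a sodium-coupled carrier of inositol and glucose, differed by 1.29 (adjusted p = 0.745), and by 0.76 without wild-type replicate 1. Ldhc, the lactate dehydrogenase of the testis, was lower in each heterozygous array, by a difference of -0.91 (adjusted p = 0.503 with limma). In the further list of lactate and pyruvate genes 4 of 21 stood at an unadjusted p under 0.05 (19.0%, beside 6.44% of all genes). They were Slc5a12 and Slc16a12, which were higher, and Ldhc and Slc16a10, which were lower. Slc16a10, the brightest of the 4, differed by -0.58 without overlap (adjusted p = 0.670 with limma).

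In gluconeogenesis, 4 of 6 further genes were lower. Slc37a4, the glucose 6-phosphate carrier of the endoplasmic reticulum, stood at 8.55, 8.84 and 8.89 in wild-type and 8.40, 8.16 and 7.84 in heterozygous replicates 1, 2 and 3. The genotypes did not overlap and differed by -0.63 (adjusted p = 0.655 with limma). Fbp1, the liver form of fructose bisphosphatase, was lower in every heterozygous array, by a difference of -0.33 (adjusted p = 0.748 with limma), where the muscle form Fbp2 was higher. Whether the 2 forms differ from each other in their response was not tested. In the glycogen list 8 of 17 genes were higher, among them Pygm, the muscle glycogen phosphorylase, at 7.54, 7.30 and 7.32 in wild-type and 7.96, 8.06 and 7.68 in heterozygous replicates 1, 2 and 3. Its difference was 0.51, without overlap (adjusted p = 0.640 with limma).

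The probe sets of 1 gene did not always point the same way. Of the 17 members with several probe sets, 8 were lower and 2 higher at all of them, and in 7 the signs differed. The members lower at every probe set were Slc2a1, Aldoa, Aldoc, Tpi1, Pgk1, Ldhb, Pdhb and Pck2. Signs differed for Slc2a3 (-0.09 to 0.83), Hk1 (-0.07 to 0.58), Pfkl (-0.34 to 0.0035) and Pfkp (-0.20 to 0.39). They also differed for Pfkfb3 (-0.16 to 0.41), Slc16a1 (-0.20 to 0.17) and Pdk1 (-0.20 to 0.07). Over the 64 probe sets, 8 did not overlap between the genotypes (12.5%, beside 10.5% of all probe sets) and 4 stood at an unadjusted p under 0.05 (6.25%, beside 5.18%). None passed over all probe sets with limma, where 3 of 45037 did (0.00666%), and the smallest adjusted p was 0.704, at the dimmer Aldoc probe set.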

How the data were processed

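Total RNA (1 µg per sample) was labelled with biotin, and 6 arrays were deposited, 3 per genotype; the titles of the samples gave group and replicate. The deposited values, 1 linear intensity for each probe set on each array, show that each array had been scaled to the same trimmed mean, and the summarising program is not stated in these sources. The 64 control probe sets were left out, intensities under 1 were set to 1, log2 values were quantile normalized, and each gene was represented by its probe set of highest mean over the 6 arrays. Genotypes were compared over all 18193 genes, and over all 45037 probe sets, by a two-sided moderated test (limma 3.58.1, R 4.3.3); p-values were adjusted by the Benjamini-Hochberg method and 0.05 was the threshold. Single values were also compared with an exact two-sided permutation test over the arrays. Scripts were tested on simulated data.

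Detection calls were not used here, and dim probe sets may lie within background; the number of arrays limits the precision. Values in every array are given for members without overlap or with an unadjusted p under 0.05, and for the brightest in each role; from each further list up to 3 genes with both properties are named. Slc2a4, Stmn2, Slc16a10, the hypoxia genes and values of single markers and of other members were given after they were seen. The members and lists were chosen with earlier results of these data known. Alternatives were a filter on dim probe sets, the deposited scaling, other variance models, the replicate number as a block, other probe set rules, log2 of the intensity plus 16, the 3' to 5' ratio and leaving out each array.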

Additional observations from a re-analysis of the deposited data

How the results depend on the processing

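No member passed the threshold in any of the 16 alternatives in which it was measured. Of the 15 members with values in every array, 8 kept their direction in all alternatives in which they were measured. Among them were Aldoc (-0.48 to -0.37 over the arrays left out), Slc2a1, Slc2a4, Hk2, Fbp2 and Slc16a7. Aldoc, Slc2a1, Hk2, Fbp2 and Slc16a7 were given in every array because their genotypes did not overlap. Leaving out an array could hardly turn such a difference, so their kept direction adds no support. All genes past the threshold numbered 3, but 6 with dim probe sets filtered out, 7 with array weights, 1 with a trended robust prior, 0 with the replicate block, with the Actb ratio as a covariate or in classes, without cross-hybridizing probe sets, and 0 to 0 over the arrays left out; at an unadjusted p under 0.05 these settings had 849 to 2539 genes. Members at an unadjusted p under 0.05 numbered 4 with the deposited scaling (12.1%, beside 6.30% of all genes) or the filter (12.5%, beside 8.29%). They numbered 1 with the replicate block (3.03%, beside 5.36%) or the ratio as a covariate (3.03%, beside 6.12%). Over the arrays left out they numbered 1 to 4 (3.03% to 12.1%, beside 4.67% to 10.5% of all genes). Members without overlap numbered 5 to 12 over the arrays left out (15.2% to 36.4%, beside 17.6% to 32.0% of all genes). The median of the members was -0.0089 with probe sets averaged per gene and -0.13 to 0.0040 over the arrays left out. The replicate numbers did not pair the samples (correlations of same-numbered deviations over genes of -0.0983, -0.0277 and -0.0776), so the block is given only here.

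The direction turned for members with small differences, with none past the threshold. With probe sets averaged per gene it was 0.13 for Pfkfb3, 0.30 for Slc2a3 and -0.0089 for Pdk1; without cross-hybridizing probe sets it was 0.83 for Slc2a3. With the ratio as a covariate it was -0.0470 for Ldha, 0.0128 for Aldoa and -0.0101 for Pdha1, and with the ratio classes, added after the data were seen, -0.0138 for Ldha and 0.0142 for Aldoa. Over the arrays left out, Ldha ran from -0.028 to 0.084, Aldoa ran from -0.204 to 0.019, Pcx ran from -0.058 to 0.345, Pdha1 ran from -0.018 to 0.082 and Pdk1 from -0.021 to 0.120. The cause was not tested.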
